A study of Mus musculus with 18 samples.

Results

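Motor neurons of the wildtype mouse spinal cord were set against wildtype ventral cord tissue, each measured on 3 arrays. These 6 arrays of the 18 in the series were taken by their sample labels alone. The labels give 3 kinds of sample, ventral spinal cord, its motor neurons and those of the brainstem (titled FN, read here as facial nucleus), with 3 wildtype and 3 SOD1 mutant samples of each kind. RNA of each sample went through a linear amplification driven by T7 polymerase and onto 1 Affymetrix mouse expression array. Both groups of the comparison carry no SOD1 mutation by their labels. Strain, sex, age, the number of animals behind a sample and the way the motor neurons were collected are not given in the sources used here, and neither is the meaning of D60 in the titles. Samples are not tied to animals either. All p-values therefore reflect how far these arrays spread, part of which may be technical.

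Spinal motor neurons lie in the ventral horn, send their axons out of the cord to skeletal muscle and use acetylcholine as their transmitter. Their identity is set during development by homeodomain factors such as Mnx1, Isl1 and Lhx3, and adult subtypes that drive fast or slow muscle fibres differ in genes such as Chodl and Mmp9. The surrounding tissue is a mixture of interneurons, oligodendrocytes, astrocytes, microglia and vessel cells, and it holds the motor neurons themselves as well. A difference between both kinds of sample is therefore one between picked cells and a mixture. In such bulk samples, fewer cells of a type and less RNA per cell cannot be told apart.

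Levels are normalized log2(intensity + 16), so a log2 difference of 1 is a 2-fold difference. A level under 8.79, the 40th percentile of all genes, is close to background, and no fold is given against it. Adjusted p-values are those of limma with Benjamini-Hochberg adjustment over the 10916 tested genes, SE is the standard error of the log2 difference, and every group has n = 3 arrays. Of the tested genes, 6404 (58.7%) passed an adjusted p of 0.05: 3880 (35.5%) were higher and 2524 (23.1%) were lower in motor neurons. At least 2-fold higher were 2507 genes (23%) and at least 2-fold lower 1730 (15.8%), the groups did not overlap for 7309 genes (67%), and 6881 (63%) had an unadjusted p under 0.05. The median log2 difference of all tested genes was 0.22. Each call tests a gene against 0, and a list median that changes sign does so against 0. Both are therefore to be read beside the median of all tested genes. Counts of called list members are to be read beside the 35.5% higher and 23.1% lower of all tested genes, and counts near these shares give no result about a list.

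How the calls divide depended on the scaling and on the probe sets used. Higher calls made up 60.6% after quantile normalization, 78.6% (5517 higher, 1498 lower) when the deposited values were shifted to a common median, and 46.4% (2944 higher, 3405 lower) with the deposited values as they are. With those scalings the median of all tested genes was 0.69 and -0.13. The kinds of sample also differed in how much of each transcript was measured. The ratio of 3' to 5' control probe sets of beta actin was 1.59 to 1.70 on the tissue arrays and 40.9 to 56.9 on the motor neuron arrays, and that of Gapdh was 0.843 to 0.914 against 19.1 to 49.7. The part of this loss of 5' sequence in any gene's difference was not tested, and in this design it cannot be told apart from the kind of sample. Of 6055 genes with at least 2 bright probe sets, 49.8% had all of them on the same side, and 14.3% had 1 called higher and another called lower. Higher calls made up 52.5% with every probe set tested. Of genes at least 2-fold higher that had other bright probe sets, these all lay on the same side for 55.4%, and 18.7% had another called lower. For genes at least 2-fold lower these shares were 66.8% and 13%, with another called higher. The part that the choice of probe set has in the calls was not tested. Where another bright probe set of a named gene lay on the other side, its log2 difference is given beside the gene. Of the 223 genes picked for naming, 191 kept their call in every alternative that held them. At a common median the lower calls of Atp5b, Hsp90b1, Rplp0, Sdhc, Sort1 and Syn1 were lost, and with the deposited values as they are the higher calls of Sox11 and Rps25. Without 1 tissue array, the calls of Ang, Clu and Hspa2 were lost in at least 1 case, Rab3a lost its call with all 18 arrays in the fit, and Nefl without the trend in the variance. The medians of the gene lists were recomputed under the other scalings, filters and pseudocounts, and with only the genes whose bright probe sets agreed in side, an alternative chosen after the data were seen. The median of 16 of the 35 lists changed sign in at least 1 of these, and a range beside a median gives its lowest and highest value over them. The mean correlation of an array with the others of its group, across genes, was at least 0.971 in tissue and 0.915 for motor neuron replicate 1, the lowest.

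The markers that define motor neurons stood far above tissue on all arrays. Chodl, a membrane lectin of fast motor neurons, was at 15.91, 16.06 and 16.03 on the motor neuron arrays and 12.22, 11.92 and 11.93 on the tissue arrays. Every motor neuron array lay well above every tissue array, and the difference was 15.7-fold (log2 difference 3.98, SE 0.14, adjusted p = 1.35e-06). Mnx1, the homeodomain factor of spinal motor neurons, was at 11.88, 12.86 and 12.01 on the motor neuron arrays and 7.92, 7.57 and 7.96 on the tissue arrays, close to background throughout the tissue (log2 difference 4.43, SE 0.32, adjusted p = 1.41e-05). Isl1, a LIM homeodomain factor, was at 13.80, 12.31 and 13.71 on the motor neuron arrays and 9.05, 9.03 and 8.52 on the tissue arrays, and replicate 2 was the lowest motor neuron array without reaching the tissue (21.2-fold, log2 difference 4.41, SE 0.39, adjusted p = 3.45e-05). A second bright probe set of Isl1 gave a log2 difference of 2.93. Prph, the intermediate filament peripherin of neurons with peripheral axons, was at 15.48, 15.92 and 15.53 on the motor neuron arrays and 12.49, 12.08 and 11.70 on the tissue arrays (11.7-fold, log2 difference 3.55, SE 0.22, adjusted p = 6.99e-06). Mmp9, a matrix metalloproteinase of fast motor neurons, was at 12.94, 14.00 and 13.37 on the motor neuron arrays and 9.58, 9.41 and 9.49 on the tissue arrays (15.4-fold, log2 difference 3.95, SE 0.27, adjusted p = 1.04e-05), and its second bright probe set gave 3.14. The groups overlapped for none of these 5 genes, and 67% of all tested genes did not overlap either.

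**Figure D1:**
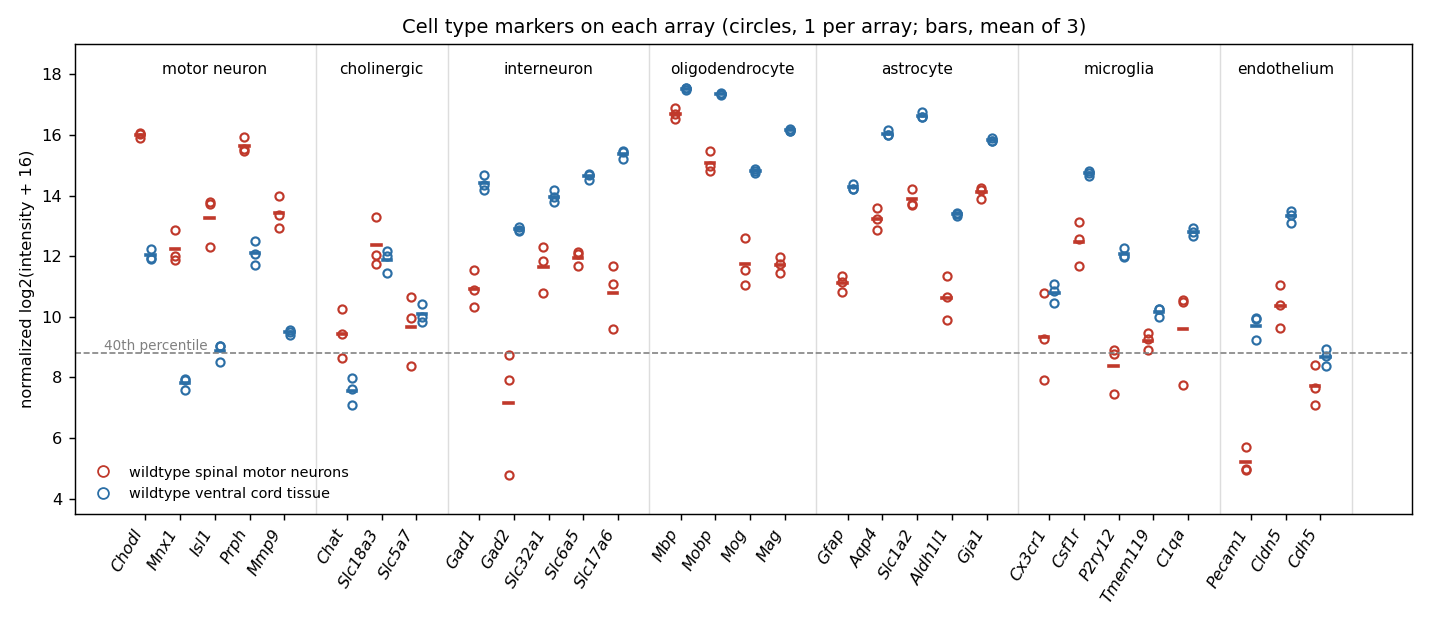
Normalized log2 level of cell type markers (vertical axis) on the 3 wildtype spinal motor neuron arrays and the 3 wildtype tissue arrays, 1 circle per array and a bar at each mean, with the 40th percentile of genes dashed. Chodl, Mnx1, Isl1, Prph and Mmp9 lie higher on all motor neuron arrays. Of the cholinergic genes shown, Chat does too, while Slc18a3 and Slc5a7 overlap between the groups. The means of the interneuron, glial and endothelial markers shown are higher in tissue, and Gad2, P2ry12, Pecam1 and Cdh5 have a motor neuron mean under the dashed line.

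The 250 bases upstream of the start of both named motor neuron markers below show how unlike their promoters are, with the motifs TATAAA and GGGCGG, on either strand, in capitals. They are RefSeq sequences of build GRCm38.p6, 5′ to 3′ on the strand of the gene, Prph at chr15:99054924-99055173 (plus strand) and Mnx1 at chr5:29478471-29478720 (minus strand).
Prph: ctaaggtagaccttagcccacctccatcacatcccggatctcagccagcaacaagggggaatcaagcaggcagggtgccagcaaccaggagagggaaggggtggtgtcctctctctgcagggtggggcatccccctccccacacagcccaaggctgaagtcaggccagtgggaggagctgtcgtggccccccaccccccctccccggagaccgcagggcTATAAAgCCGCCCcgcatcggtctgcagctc
Mnx1: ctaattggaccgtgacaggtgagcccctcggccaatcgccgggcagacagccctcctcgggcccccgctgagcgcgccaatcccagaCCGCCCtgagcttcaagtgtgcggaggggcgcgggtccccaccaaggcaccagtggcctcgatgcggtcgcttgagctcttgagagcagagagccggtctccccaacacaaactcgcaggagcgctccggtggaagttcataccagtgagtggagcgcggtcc
The Prph window held 1 TATAAA, 1 GGGCGG and 7 CpG, and the Mnx1 window no TATAAA, 1 GGGCGG and 21 CpG. The shares that follow were counted in the full promoter sequences used, which are longer than the 250 bases printed here. Over the genes with such a promoter, TATAAA stood in 6.85% of those at least 2-fold higher in motor neurons, 7.13% of those at least 2-fold lower and 6.48% of all tested genes (14.2% of all 27025 promoters used). GGGCGG was in 64%, 66% and 66.3% of them (35.9% of all promoters), and TAATTA, the core that homeodomain factors bind, was in 2.48%, 1.85% and 2.11% (5.31% of all promoters). CACGTG, an E-box that basic helix-loop-helix factors bind, was in 10.2%, 8.49% and 10.4% (7.24% of all promoters). These shares were not tested. The median gene length was 22.1 kb for genes at least 2-fold higher, 30.2 kb for those at least 2-fold lower and 25.7 kb for all tested genes.

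The 15 largest differences in the direction of motor neurons included the markers Mnx1 and Isl1, described above. Cfi, the complement protease factor I, was at 12.44, 11.15 and 12.02 on the motor neuron arrays and 6.997, 7.58 and 6.46 on the tissue arrays and had a log2 difference of 4.86 (SE 0.44, adjusted p = 3.81e-05). Gna14, an alpha subunit of the Gq class of G proteins, was at 13.79, 14.00 and 13.90 on the motor neuron arrays and 8.92, 9.23 and 9.08 on the tissue arrays, a 28.3-fold difference (log2 difference 4.82, SE 0.18, adjusted p = 1.73e-06). Both genes were separated between the groups by several log2 units. Nell1, a secreted glycoprotein, was 25.1-fold higher (levels 14.77 ± 0.39 and 10.12 ± 0.47, mean ± SD). Amhr2, the type II receptor of anti-Müllerian hormone, was at 14.65, 14.16 and 14.32 on the motor neuron arrays and 10.32, 9.72 and 9.86 on the tissue arrays (21.2-fold, log2 difference 4.41, SE 0.22, adjusted p = 3.39e-06). Kcnj14, an inward rectifier potassium channel, was at 14.94, 15.42 and 15.03 on the motor neuron arrays and 10.61, 11.08 and 10.77 on the tissue arrays (19.8-fold, log2 difference 4.31, SE 0.20, adjusted p = 2.48e-06). Rspo2, a secreted enhancer of Wnt signalling, was 19.3-fold higher and Popdc3, a cAMP-binding membrane protein, 17.7-fold. S100a10, which carries annexin A2 and ion channels to the membrane, was 17.2-fold higher. Dnah2, a heavy chain of axonemal dynein, had a log2 difference of 4.77, Spp2, a secreted phosphoprotein, 4.57, and the small membrane protein gene Smim38 4.34. Pappa, a metalloproteinase that cleaves binding proteins of insulin-like growth factors, was at 4.32 and Aldh1a7, an aldehyde dehydrogenase, at 4.29. In tissue the means of Cfi, Dnah2, Spp2, Mnx1, Smim38, Pappa and Aldh1a7 were close to background, so their true ratios are not measured. The adjusted p of all 15, Mnx1 and Isl1 among them, was between 1.73e-06 and 0.000497, and where another bright probe set existed it lay on the same side.

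The 15 largest differences in the direction of tissue were all in genes whose motor neuron mean was close to background, so they give depletion without a fold. Fmod, a collagen-binding proteoglycan of connective tissue, was at 4.79, 5.31 and 4.41 on the motor neuron arrays and 12.54, 13.28 and 13.22 on the tissue arrays (log2 difference -8.18, SE 0.42, adjusted p = 3.59e-06). Igf2, a growth factor of meninges and vessels, was at 5.98, 6.69 and 7.04 on the motor neuron arrays and 13.83, 14.28 and 14.03 on the tissue arrays (log2 difference -7.47, SE 0.32, adjusted p = 1.88e-06), and Myl9, the myosin light chain of smooth muscle, had a log2 difference of -6.22. Aplnr, the apelin receptor, was at -6.07, Cdkn1c, a cell cycle inhibitor, at -6.73 and the serpin Serpinb1b at -7.68. The others are known from neurons. Tac1 and Tac2, the precursors of substance P and neurokinin B, were at -6.28 and -6.98, and Tac1 stood at 7.14, 6.15 and 7.10 on the motor neuron arrays and 13.24, 12.98 and 13.01 on the tissue arrays. Gad2, which makes GABA, was at -5.75, the transcription factor Ebf3 at -6.39 and Grm5, a metabotropic glutamate receptor, at -5.78. Camk2a, the alpha subunit of a calcium-dependent kinase of excitatory neurons, was at -5.84, the active zone protein gene Rims3 at -6.07, Baiap3, a gene of vesicle exocytosis, at -7.15 and the JNK scaffold gene Mapk8ip1 at -6.35. Their adjusted p lay between 1.85e-06 and 0.00124, and no bright probe set of these genes lay on the other side.

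**Figure D2:**
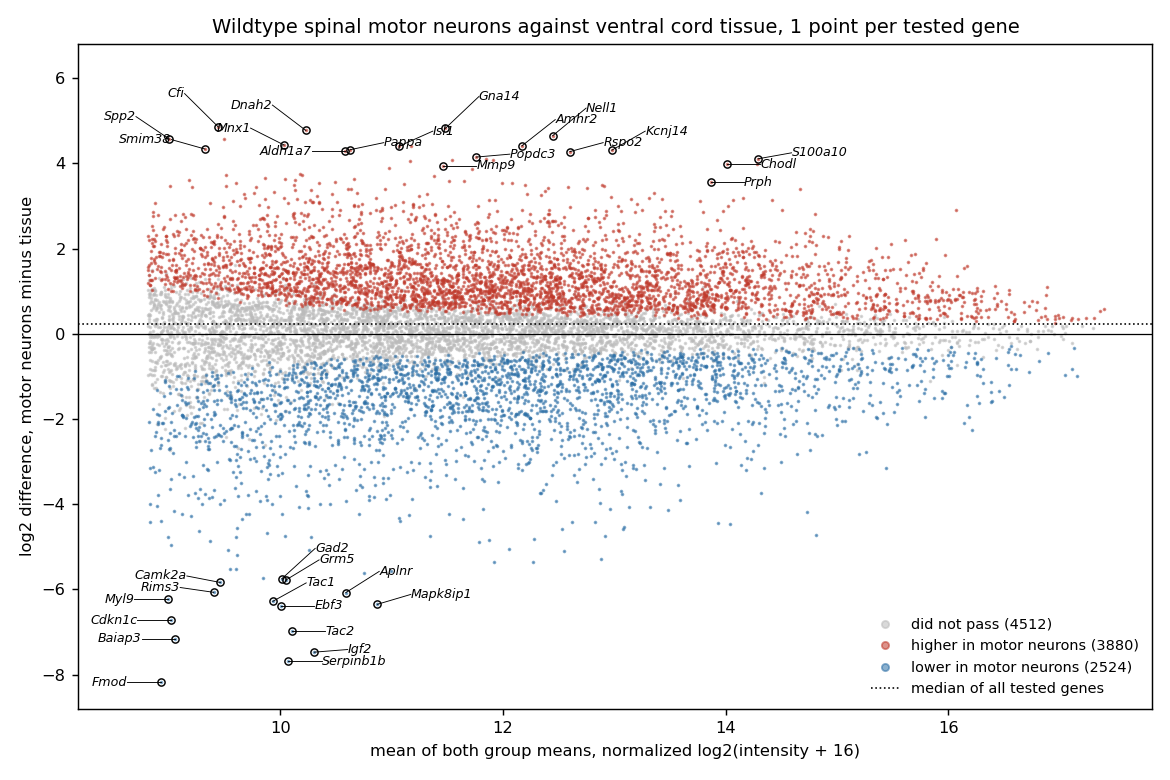
Log2 difference between wildtype spinal motor neurons and tissue (vertical axis) against the mean of both group means on the log2 scale (horizontal axis), 1 point per tested gene, with the 5 markers and the 15 largest differences per direction ringed. The 3880 higher genes reach a difference of 4.86 (Cfi), the 2524 lower genes -8.18 (Fmod), and the dotted median of all tested genes is at 0.22.

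Motor neuron transcription factors were mostly higher. Of 13 tested, 9 were higher and 2 lower, with a median log2 difference of 1.54 against 0.22 over all tested genes. When no filter was set on low levels, these medians were 1.28 and 0.29. Bcl6, a transcriptional repressor, was at 14.48, 14.54 and 14.40 on the motor neuron arrays and 11.26, 11.15 and 10.73 on the tissue arrays (10.8-fold, log2 difference 3.43, SE 0.18, adjusted p = 3.99e-06), though another bright probe set gave -1.44. Isl2, a LIM homeodomain factor of motor neurons, was at 10.96, 11.52 and 11.11 on the motor neuron arrays and 8.56, 8.36 and 8.497 on the tissue arrays, with all tissue arrays close to background (log2 difference 2.72, SE 0.28, adjusted p = 6.74e-05). Chosen after their values were seen, Lhx3 and Lhx4, the LIM homeodomain factors that act with Isl1, had log2 differences of 1.54 and 2.65. The estrogen-related receptors Esrrb and Esrrg, named on the same footing, were at 1.39 and 1.16, and Zfp804a, a zinc finger gene, at 2.24. Lower were 2 members of the Ebf family, Ebf1 (-3.56, adjusted p = 3.42e-05) and Ebf2 (-4.38, adjusted p = 0.000736), both known also from interneurons and other cells. Foxp1, a forkhead factor of limb-innervating columns, was at 0.50 and did not pass (adjusted p = 0.0707), with other bright probe sets at -2.10, -3.91, -1.95 and -0.88 on the lower side. Left out by the filter on low levels were 5 measured members, Etv4, Nkx6-1, Onecut1, Runx1 and Tbx20, all with motor neuron means close to background.

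Hox genes, which give the cord its segmental identity, split by member. Of 20 tested, 5 were higher and 11 lower, with a median of -0.82, which stayed below 0 under both other scalings. Hoxc5 was at 11.50, 12.86 and 12.54 on the motor neuron arrays and 10.56, 10.19 and 10.15 on the tissue arrays (4-fold, log2 difference 1.999, SE 0.34, adjusted p = 0.00106), and Hoxc10, a gene of lumbar levels, at 13.68, 13.87 and 13.29 on the motor neuron arrays and 11.98, 12.07 and 12.15 on the tissue arrays (2.92-fold, log2 difference 1.54, SE 0.19, adjusted p = 0.000158). The other higher members, named after their values were seen, were Hoxd9 (1.05), Hoxa9 (0.66, another bright probe set at -1.66) and Hoxc8 (0.37). On the lower side, Hoxb9 was at 8.66, 7.99 and 6.72 on the motor neuron arrays and 11.24, 11.46 and 11.52 on the tissue arrays (log2 difference -3.61, SE 0.47, adjusted p = 0.000254), with every motor neuron array under every tissue array. Hoxd8 was 6.36-fold lower, and Hoxd3 had a log2 difference of -2.16 and Hoxc6 of -1.67. Hoxa5 was at -2.57, with another bright probe set at 1.60. Hoxc9 (0.35), Hoxb4 (0.06), Hoxa10 (-0.37) and Hoxb5 (-0.47) did not pass. None of the tested HoxB members was higher.

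Genes of motor neuron subtypes and peptides were higher in 12 of 17 tested and lower in 4, with a median of 1.52. Calcb, which encodes a calcitonin gene-related peptide, was at 16.43, 15.94 and 16.44 on the motor neuron arrays and 12.62, 12.31 and 11.93 on the tissue arrays (15.8-fold, log2 difference 3.98, SE 0.21, adjusted p = 3.99e-06). Gfra1, a receptor subunit for GDNF, was at 13.71, 14.25 and 14.05 on the motor neuron arrays and 11.81, 11.35 and 11.26 on the tissue arrays (5.78-fold, log2 difference 2.53, SE 0.21, adjusted p = 2.68e-05), but another bright probe set gave -2.21. Sncg, gamma-synuclein, was 4.28-fold higher (levels 16.54 ± 0.09 and 14.44 ± 0.29) and the granin-like peptide precursor Vgf had a log2 difference of 1.33. The exceptions included Sv2a, a synaptic vesicle glycoprotein that marks slow motor neurons, at 11.55, 12.22 and 10.98 on the motor neuron arrays and 14.36, 14.42 and 14.37 on the tissue arrays (log2 difference -2.80, SE 0.28, adjusted p = 6.22e-05). Scg2, a granin of dense-core vesicles, was at -2.10 (adjusted p = 5.46e-06). Rbfox3, which encodes the neuronal antigen NeuN and is low in gamma motor neurons, was at 0.13 (95% interval -0.34 to 0.61) and did not pass, with other bright probe sets at -0.39 and -0.75.

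The cholinergic genes proper separated the groups less than these markers. Chat, the enzyme that makes acetylcholine, had no test since its mean over the 6 arrays was too low, and it was at 8.63, 10.25 and 9.43 on the motor neuron arrays and 7.63, 7.97 and 7.10 on the tissue arrays. The groups did not overlap there, but the tissue arrays were all close to background. Slc18a3, the vesicular acetylcholine transporter, was at 11.72, 13.31 and 12.04 on the motor neuron arrays and 11.45, 11.996 and 12.18 on the tissue arrays, and the arrays of both groups overlapped (log2 difference 0.48, 95% interval -0.40 to 1.37). Slc5a7, the choline transporter of terminals, was at 8.37, 9.96 and 10.66 on the motor neuron arrays and 9.998, 10.42 and 9.83 on the tissue arrays and also overlapped (-0.42, 95% interval -1.63 to 0.80). Ache, which breaks acetylcholine down, was 1.75-fold higher (adjusted p = 0.0239), a call that ended without tissue replicate 1 (log2 difference 0.70). Prima1, its membrane anchor, was 2.42-fold higher (levels 13.01 ± 0.47 and 11.74 ± 0.07). The nicotinic receptor subunits Chrnb2 (1.103) and Chrna7 (0.86) were higher too, Chrnb2 not with the deposited values as they are (0.30). Slc44a1, a choline transporter of many cells, was lower (-1.75). In all, 4 of 8 tested members of this list were higher and 1 was lower, with a median of 0.65.

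Among intermediate filaments of neurons, peripherin alone differed by more than 2-fold upward. Nefh, the heavy neurofilament subunit, was at 16.85, 17.26 and 17.08 on the motor neuron arrays and 16.52, 16.45 and 16.54 on the tissue arrays (1.47-fold, adjusted p = 0.00285). Nefl was 1.29-fold higher (adjusted p = 0.00301), with another bright probe set at -0.41, and Nefm was at 0.17 and did not pass. Ina, alpha-internexin, was at 14.18, 15 and 13.84 on the motor neuron arrays and 15.79, 16.02 and 15.83 on the tissue arrays, lower on every motor neuron array (log2 difference -1.54, SE 0.26, adjusted p = 0.00102), a call that ended at a common median (-0.26). Of the microtubule and axonal transport genes, 14 were higher and 12 lower of 37, with a median of 0.07 that turned to -0.20 with the filter at the 60th percentile and to -0.24 with only the genes whose bright probe sets agreed in side (highest value 1.18, at a common median). Tuba8, an alpha-tubulin, was 6.94-fold and Tubb3, the neuronal beta-tubulin, 2.82-fold higher. Kif1a, the kinesin of synaptic vesicle precursors, was at 7.19, 10.47 and 9.58 on the motor neuron arrays and 12.51, 12.81 and 12.54 on the tissue arrays (log2 difference -3.54, SE 0.69, adjusted p = 0.00223). Tubb4a, a beta-tubulin also known from oligodendrocytes, was at -3.02, Mapt, which encodes tau, at -2.31 and the stathmin Stmn4 at -2.17.

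Synaptic vesicle and SNARE genes were lower more often than higher after quantile normalization, 11 against 4 of 22. Their median was -0.60 against 0.22 over all tested genes (range -1.096 to 0.81). It was 0.81 against 0.69 at a common median and -0.015 against -0.13 with the deposited values as they are. Under both of those scalings it lay above the median of all tested genes. Syt1, the calcium sensor of vesicle release, was at 11.07, 10.94 and 10.65 on the motor neuron arrays and 14.79, 14.89 and 14.92 on the tissue arrays (log2 difference -3.98, SE 0.17, adjusted p = 1.85e-06). Cplx2, a complexin, was at -3.62, the syntaxin Stx1a at -2.96, Syn1, a synapsin, at -2.06 and Syp, synaptophysin, at -1.89. Sypl, a relative of synaptophysin in many cells, was at -3.03. Higher members included the vesicle GTPase gene Rab3a (0.92, another bright probe set at -0.23) and the synapsin Syn2 (0.67, another at -1.62).

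Channels showed no common direction. Potassium channels, a list without the Kcnj14 described above, were higher in 9 and lower in 10 of 25 tested. The list had a median of 0.21 against 0.22 over all tested genes. This median turned to -0.14 with the deposited values as they are, where that of all tested genes was -0.13 (range -0.14 to 0.68). Kcng4, a modifier subunit of delayed rectifiers, was at 13.97, 14.53 and 14.06 on the motor neuron arrays and 11.90, 11.97 and 11.97 on the tissue arrays (4.71-fold, log2 difference 2.24, SE 0.18, adjusted p = 2.34e-05). Kcnk3, a tandem-pore leak channel of motor neurons, was at 12.60, 13.36 and 12.66 on the motor neuron arrays and 10.78, 10.92 and 11.08 on the tissue arrays (3.86-fold, log2 difference 1.95, SE 0.24, adjusted p = 0.000165). Kcna6 (5.8-fold) and Kcnc4 (4.22-fold) were higher as well, each with another bright probe set on the other side (-2.07 and -2.81). Kcnj10, the inward rectifier of astrocytes and oligodendrocytes, was 5.14-fold lower (levels 13.30 ± 0.34 and 15.66 ± 0.49). Kcnd2, an A-type channel, was at -2.13.

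Sodium, calcium and HCN channels had 3 higher and 8 lower members of 24, and their median of 0.23 turned to -0.35 with the deposited values as they are and to -1.16 with the filter at the 60th percentile. Scn3b, a sodium channel beta subunit, was at 8.24, 6.49 and 6.94 on the motor neuron arrays and 12.20, 12.13 and 11.63 on the tissue arrays (log2 difference -4.76, SE 0.46, adjusted p = 5.25e-05). Hcn2, a channel of the hyperpolarization-activated current, was at 10.55, 10.37 and 10.16 on the motor neuron arrays and 13.48, 13.47 and 13.46 on the tissue arrays (8.62-fold lower, log2 difference -3.11, SE 0.18, adjusted p = 5.07e-06). Scn2b was at -2.57, and the calcium channel subunits Cacna2d1, Cacna1b and Cacna1e at -2.01, -1.66 and -1.66. Higher members, named after their values were seen, were Cacna2d3 (1.58), Hcn3 (1.37) and Scn1a (0.84).

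Glutamate receptors were higher in 4 and lower in 5 of 17, with a median of 0.05 that turned to -0.34 with the deposited values as they are (range -0.34 to 0.48). Gria3 was at 14.36, 14.56 and 14.53 on the motor neuron arrays and 13.19, 13.30 and 12.99 on the tissue arrays (2.5-fold higher, log2 difference 1.32, SE 0.15, adjusted p = 9.99e-05), while the AMPA receptor subunits Gria2 and Gria1 were lower. Gria2, the subunit that keeps AMPA receptors impermeable to calcium, was at 11.70, 12.38 and 11.90 on the motor neuron arrays and 14.67, 14.83 and 14.80 on the tissue arrays (6.83-fold lower, log2 difference -2.77, SE 0.19, adjusted p = 1.14e-05), and its other bright probe sets gave -0.21 and -0.79. Gria1 was at -1.60 (adjusted p = 0.000865), while Gria4 was at -0.24 and did not pass. Among the other lower receptors, Grik5 was at -2.92 and Grm3, known from astrocytes and neurons, at -2.04. Of the GABA and glycine receptor genes, 2 were higher and 3 lower of 10, with a median of 0.10 that turned to -0.33 when no filter was set on low levels and to -0.75 with only the genes whose bright probe sets agreed in side. Gabrg1 was 2.54-fold higher, and Gabra2 2.02-fold with both other bright probe sets lower (-2.77 and -2.30). Gabra3 was 8.16-fold lower, and Gabrb2 and Gabrb1 were at -0.78 and -0.75, which were no longer called lower at a common median, where Gabrb1 turned to 0.24.

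Calcium handling genes were higher in 4 and lower in 7 of 17, with a median of 0.04 that turned to -0.01 with the deposited values as they are and to -1.39 with only the genes whose bright probe sets agreed in side. Pvalb and Calb1, calcium buffers known to be scarce in motor neurons, were both lower. Pvalb, parvalbumin, was at 14.19, 12.69 and 13.79 on the motor neuron arrays and 15.01, 15.08 and 15.57 on the tissue arrays (3.17-fold, log2 difference -1.66, SE 0.35, adjusted p = 0.00317), a call that ended at a common median (-0.44). Calb1, calbindin, was at 11.99, 13.50 and 10.12 on the motor neuron arrays and 13.75, 13.69 and 13.85 on the tissue arrays, where the motor neuron arrays lay far apart from each other but none reached the tissue (log2 difference -1.89, SE 0.68, adjusted p = 0.038). Its call ended when any one array other than motor neuron replicate 2 was left out, and without replicate 3 the log2 difference was -1.02. Calb2, calretinin, was at 0.04 and did not pass. Hpca, hippocalcin, was at -4.24, Necab2 at -2.90 and Ncald at -2.75. S100a10 was at 16.21, 16.31 and 16.51 on the motor neuron arrays and 12.49, 12.73 and 11.50 on the tissue arrays on the other side.

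Receptors for trophic factors and cytokines were higher in 5 and lower in 3 of 15, with a median of 0.05 that turned to -0.52 with the deposited values as they are (range -0.52 to 0.30). Ret, the signalling subunit for GDNF family ligands, was at 14.68, 14.30 and 14.40 on the motor neuron arrays and 12.79, 12.60 and 12.39 on the tissue arrays (3.64-fold, log2 difference 1.87, SE 0.17, adjusted p = 3.88e-05), with another bright probe set at -1.32. Lifr and Il6st, which form the receptor of leukemia inhibitory factor, were 2.3-fold and 2.06-fold higher, and 2 other bright probe sets of Il6st gave -1.13 and -3.33. Flt1, a VEGF receptor of endothelium, was at -3.82 and the sorting receptor Sort1 at -1.16. Ntrk2, the receptor of BDNF, was at 0.30 (other bright probe sets -1.77, -2.40 and -0.05 and 0.33) and Cntfr, that of CNTF, at 0.09, and neither passed.

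Axon guidance and adhesion genes had 16 higher and 7 lower of 34, beside 35.5% higher and 23.1% lower of all tested genes. Their median was 0.68 (range 0.08 to 0.90), against 0.22 over all tested genes. Slit2, a repellent that motor neurons secrete, was at 14.52, 14.70 and 14.64 on the motor neuron arrays and 12.18, 12.08 and 12.07 on the tissue arrays (5.69-fold, log2 difference 2.51, SE 0.14, adjusted p = 4.78e-06), and both its other bright probe sets lay on the same side. Sema3a, a secreted semaphorin, was at 13.94, 13.86 and 14.12 on the motor neuron arrays and 11.52, 11.67 and 11.49 on the tissue arrays (5.34-fold, log2 difference 2.42, SE 0.16, adjusted p = 8.51e-06), with another bright probe set at -0.44. Nrp2, a semaphorin receptor, was 3.81-fold higher (levels 12.70 ± 1.02 and 10.77 ± 0.12). Lower members included Efnb3, an ephrin known from oligodendrocytes and the midline, at -3.32, the adhesion molecule Ncam1 at -2.69 and Slit1 at -2.66.

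Of the axon injury response genes, 7 were higher and 1 was lower of 14, with a median of 0.48 (range 0.007 to 1.09). The median fell to 0.06 when no filter was set on low levels and to 0.04 with a pseudocount of 64. With only the genes whose bright probe sets agreed in side it was 0.007. The median of all tested genes under these settings was 0.29, 0.21 and 0.17. Bdnf was 4.15-fold higher, with another bright probe set at -1.69. Jun was 3.38-fold higher, with another at -0.60, and Sox11 had a log2 difference of 1.65, with another at -1.196. Gap43, the growth-associated protein of axons, was at 11.19, 9.92 and 10.44 on the motor neuron arrays and 14.58, 14.41 and 14.31 on the tissue arrays, lower on all motor neuron arrays (15.1-fold, log2 difference -3.92, SE 0.29, adjusted p = 1.62e-05). Atf3, an early injury factor, was close to background in both groups (7.43 ± 2.04 and 7.34 ± 0.63). Among immediate early genes, 3 were higher and 1 lower of 11, and their median of 0.34 turned to -0.76 with the deposited values as they are (range -0.76 to 0.94). Fos (0.94) and Dusp1 (1.11) were higher and Egr1 lower (-1.63).

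Small heat shock genes and their partner Bag3 gave some of the larger differences among genes of protein folding. Bag3, a co-chaperone of selective autophagy, was at 14.03, 15.18 and 14.71 on the motor neuron arrays and 11.30, 11.13 and 11.07 on the tissue arrays (11.1-fold, log2 difference 3.47, SE 0.27, adjusted p = 1.91e-05). Hspb8, the small heat shock protein that binds it, was at 15.56, 15.63 and 15.71 on the motor neuron arrays and 12.34, 12.62 and 12.52 on the tissue arrays (8.82-fold, log2 difference 3.14, SE 0.14, adjusted p = 2.07e-06), although of 2 other bright probe sets 1 gave 1.35 and 1 -1.74. Hspb1 was 2.83-fold, Hspa1a 3.9-fold and Hspa9, the mitochondrial member of its family, 2.61-fold higher. All 32 members of the list were tested, and 16 were higher and 5 lower, with a median of 0.40. Hsp90b1, the chaperone of the endoplasmic reticulum, was 2.35-fold lower and Hspa2 2.96-fold lower. The median was -0.06 with only the genes whose bright probe sets agreed in side and 1.64 at a common median.

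Proteasome subunits were higher in 15 and lower in 7 of 31, with a median of 0.38 (range 0.36 to 1.61). Psmc4, an ATPase of the regulatory particle, was at 15.08, 15.52 and 15.59 on the motor neuron arrays and 13.29, 12.92 and 12.53 on the tissue arrays (5.6-fold, log2 difference 2.49, SE 0.22, adjusted p = 3.3e-05), with another bright probe set at -0.04. Psmb3, a subunit of the core, was at 17.31, 16.68 and 17.02 on the motor neuron arrays and 14.63, 14.85 and 14.82 on the tissue arrays (4.71-fold, log2 difference 2.24, SE 0.16, adjusted p = 1.28e-05), with a second bright probe set at 0.02. Psmd7 (5.4-fold), Psmb7 (4.13-fold) and Psmc5 (3.23-fold) were lower, so subunits of a single complex lay on both sides. Ubiquitin and autophagy genes divided evenly, 7 higher and 7 lower of 20, with a median of -0.07 that turned to 1.06 at a common median and to 0.24 with the deposited values as they are (range -0.44 to 1.06). Sqstm1, the autophagy receptor p62, was at 12.99, 13.37 and 13.65 on the motor neuron arrays and 15.68, 15.84 and 15.67 on the tissue arrays (5.27-fold lower, log2 difference -2.40, SE 0.18, adjusted p = 1.45e-05). The autophagy kinase genes Tbk1 (2.72-fold) and Ulk1 (2.2-fold) and the conjugation gene Atg5 (2.55-fold) were higher, and Gabarapl2, of the same family as LC3, was lower (3.46-fold, another bright probe set at 0.91).

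Mouse counterparts of genes mutated in amyotrophic lateral sclerosis, a disease of motor neurons, were higher in 8 and lower in 6 of 19, with a median of 0.16 (range -0.56 to 1.62). C9orf72 was at 14.00, 14.24 and 14.32 on the motor neuron arrays and 12.62, 12.48 and 12.19 on the tissue arrays (3.38-fold, log2 difference 1.76, SE 0.17, adjusted p = 5.6e-05). Atxn2 was 2.42-fold higher by its brightest probe set, while 3 other bright ones gave -0.90, -0.76 and -1.68. Pfn1, profilin, was 4.98-fold lower (levels 12.21 ± 0.34 and 14.53 ± 0.28) and Ang, angiogenin, had a log2 difference of -1.65. Sod1, named as the gene mutated in the other genotype, was at 16.36, 16.45 and 16.38 on the motor neuron arrays and 16.02, 16.18 and 16.11 on the tissue arrays, higher by 0.29 (adjusted p = 0.024) by its brightest probe set, and its 3 other bright probe sets were higher by 1.15, 1.02 and 1.08.

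Where genes of energy metabolism and translation lay against the median of all tested genes depended on the scaling. Respiratory chain subunits were higher in 19 and lower in 10 of 46, with a median of 0.20 against 0.22 over all tested genes, but 1.55 against 0.69 at a common median and 0.72 against -0.13 with the deposited values as they are. Ndufa5 of complex I was 3.59-fold and Ndufb3 2.81-fold higher, and Atp5b of the ATP synthase and Sdhc of complex II were 2.84-fold and 2.38-fold lower. Glycolysis genes had 2 higher and 5 lower members of 18, and their median of -0.002 turned to 1.35 at a common median and 0.53 with the deposited values as they are, above the median of all tested genes under both. Got1, an aminotransferase of the malate shuttle, was 5.27-fold lower (levels 13.62 ± 0.51 and 16.02 ± 0.11). Pkm (-0.78), Pgam1 (-0.56) and Pfkm (-0.996) were lower but turned to 0.62, 0.82 and 0.31 at a common median. Gapdh, whose control probe sets gave the quality ratio, was at 0.01 and did not pass, and its other bright probe sets gave -4.74 and -2.08.

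Cytosolic ribosomal protein genes were lower in 14 and higher in 3 of 30, with a median of -0.39 that turned to 1.05 at a common median and 0.23 with the deposited values as they are, again above the median of all tested genes under both. Rps9 was 6.65-fold lower, with another bright probe set at 1.57, and Rplp0 was 3.16-fold lower. Rpl14 was 4.29-fold and Rps25 3.65-fold higher, so the members did not keep to a single direction. Splicing factors were lower in 17 and higher in 8 of 33, with a median of -0.61 that turned to 0.32 at a common median (range -1.53 to 0.32) and lay below that of all tested genes under all 3 scalings. Snrnp70, of the U1 particle, was at 8.86, 11.10 and 10.31 on the motor neuron arrays and 13.21, 12.81 and 13.20 on the tissue arrays (7.89-fold lower, log2 difference -2.98, SE 0.48, adjusted p = 0.000815). Srsf5 was 7.55-fold and Hnrnpl 6.62-fold lower, and Ptbp1, the splicing repressor of cells other than neurons, 6.03-fold lower. Elavl2, a neuronal RNA-binding protein, was 2.58-fold higher, with another bright probe set at -2.04. Cholesterol synthesis genes divided as 5 higher and 5 lower of 17, with a median of -0.10 that turned to 0.70 at a common median (range -0.47 to 0.70). Fdps, which makes farnesyl diphosphate, was 21.2-fold lower, and Hsd17b7 5.46-fold higher with another bright probe set at -0.07.

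Transmitter and peptide genes of interneurons were among the most depleted lists. Of 14 tested, 11 were lower and 1 was higher, with a median of -3.40. It was -2.84 when no filter was set on low levels. The inhibitory transmitter genes stood at -3.49 for Gad1, -2.32 for Slc32a1, the vesicular GABA and glycine transporter, and -2.68 for Slc6a5, the glycine transporter. Gad2 was at 8.74, 7.91 and 4.77 on the motor neuron arrays and 12.82, 12.87 and 12.98 on the tissue arrays, close to background on all motor neuron arrays (log2 difference -5.75, SE 0.85, adjusted p = 0.000503). Slc17a6, the vesicular glutamate transporter of excitatory interneurons, was at 11.68, 9.59 and 11.10 on the motor neuron arrays and 15.43, 15.47 and 15.19 on the tissue arrays (23.9-fold lower, log2 difference -4.58, SE 0.45, adjusted p = 5.61e-05). The peptide genes Penk (-4.82), Sst (-5.05) and Npy (-5.06) followed, each lower on all motor neuron arrays. Cck was the exception at 0.75 (adjusted p = 0.0114), with levels of 13.77, 13.03 and 13.52 on the motor neuron arrays and 12.72, 12.66 and 12.69 on the tissue arrays. The log2 of the list's summed intensity was 15.13 to 15.67 on the motor neuron arrays and 17.75 to 17.83 in tissue, and 13 of 24 measured members were close to background in motor neurons against 7 in tissue.

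Myelin and oligodendrocyte genes were lower in 19 of 20, and none was higher, with a median of -2.27. Mag, a myelin adhesion protein, was at 11.43, 11.74 and 11.97 on the motor neuron arrays and 16.14, 16.12 and 16.18 on the tissue arrays (21.6-fold lower, log2 difference -4.43, SE 0.16, adjusted p = 1.42e-06). Gjb1, a gap junction protein of oligodendrocytes, was at 5.67, 7.09 and 7.76 on the motor neuron arrays and 12.57, 12.29 and 12.25 on the tissue arrays (log2 difference -5.53, SE 0.50, adjusted p = 3.82e-05), which is close to background in motor neurons. Fa2h, which makes myelin lipids, was 17.4-fold lower and Mog 8.43-fold. Mbp, the basic protein of myelin, differed by the smallest amount of those that passed and remained high on the motor neuron arrays, at 16.52, 16.69 and 16.90 on the motor neuron arrays and 17.54, 17.54 and 17.49 on the tissue arrays (1.77-fold lower, log2 difference -0.82, SE 0.11, adjusted p = 0.000256). Other bright probe sets of Mbp ran from -7.21 to 1.51. Qdpr did not pass (-0.16). The log2 of the summed intensity of this list was 18.29 to 18.74 in motor neurons and 20.05 to 20.13 in tissue, and 2 of 20 members were close to background in motor neurons.

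Oligodendrocyte precursors were represented by 11 tested genes, of which 7 were lower and 1 higher, with a median of -1.49. Pdgfra, the receptor that defines these cells, was at 5.53, 10.16 and 9.38 on the motor neuron arrays and 12.05, 12.26 and 12.09 on the tissue arrays (log2 difference -3.78, SE 0.99, adjusted p = 0.0101). Its motor neuron mean was close to background, but of the single arrays only replicate 1 was. Gpr17 was 10.1-fold lower and Olig1, a transcription factor of the lineage, 4.42-fold. Tnr, a matrix protein of perineuronal nets, was higher (2.74-fold). All 4 tested Schwann cell genes were lower, with a median of -1.66, among them Mal (7.11-fold) and Pmp22 (1.61-fold, turned to 0.74 at a common median).

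Astrocyte genes were lower in 21 of 24 and higher in 1, with a median of -2.33. Gfap, the intermediate filament of astrocytes, was at 11.14, 10.81 and 11.35 on the motor neuron arrays and 14.23, 14.37 and 14.20 on the tissue arrays (8.98-fold lower, log2 difference -3.17, SE 0.18, adjusted p = 5.33e-06). The glutamate transporter Slc1a3 was at 7.09, 8.92 and 7.79 on the motor neuron arrays and 11.52, 12.11 and 12.15 on the tissue arrays (log2 difference -4.00, SE 0.46, adjusted p = 0.000119), close to background in motor neurons, and Slc1a2 was 6.8-fold lower. Agt, angiotensinogen, was 40.8-fold lower, the water channel Aqp4 7.04-fold and Aldh1l1, an enzyme of folate metabolism, 6.76-fold. Clu, clusterin, which neurons also make, was higher by 0.35 (adjusted p = 0.0218), and of 3 other bright probe sets 1 gave -1.06. The summed intensity of the list had a log2 of 19.15 to 19.27 in motor neurons and 20.44 to 20.46 in tissue, and 3 of 25 measured members were close to background in motor neurons.

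Microglia genes were lower in 11 of 16 and higher in none, with a median of -1.66. P2ry12, a purine receptor of resting microglia, was at 8.92, 7.44 and 8.78 on the motor neuron arrays and 11.96, 12.26 and 12.02 on the tissue arrays (log2 difference -3.70, SE 0.39, adjusted p = 8.34e-05). C1qa, a complement subunit, was at 10.49, 7.74 and 10.55 on the motor neuron arrays and 12.80, 12.92 and 12.68 on the tissue arrays (9.22-fold lower, log2 difference -3.20, SE 0.65, adjusted p = 0.00285) and Csf1r, the receptor for colony stimulating factor, 4.85-fold lower. Cx3cr1, the fractalkine receptor, was at 10.77, 9.26 and 7.92 on the motor neuron arrays and 10.84, 11.09 and 10.44 on the tissue arrays, where motor neuron replicates differed among themselves and reached the tissue level, and it did not pass (adjusted p = 0.0677). The spread between motor neuron arrays was wide for the list as a whole: its summed intensity had a log2 of 13.86 to 15.34 there and 16.44 to 16.53 in tissue. Of 21 measured members, 8 were close to background in motor neurons and 2 in tissue.

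Vessel and connective tissue genes were often depleted to levels close to background. Mural cell and fibroblast genes were lower in 16 of 18 and higher in none, with a median of -3.17, and 10 of 20 measured members were close to background in motor neurons against none in tissue. Col1a2, a collagen chain, was 29.5-fold lower, Vtn, vitronectin of pericytes, 40.9-fold, and Apod, an apolipoprotein of fibroblasts and glia, 26.2-fold. Col3a1 had a log2 difference of -4.76. The log2 of the summed intensity was 16.05 to 16.27 in motor neurons and 18.72 to 18.87 in tissue. Endothelial genes were lower in 9 and higher in 3 of 15, with a median of -1.73. Cldn5, a tight junction protein of the blood-brain barrier, was at 10.37, 9.64 and 11.05 on the motor neuron arrays and 13.10, 13.49 and 13.35 on the tissue arrays (7.77-fold lower, log2 difference -2.96, SE 0.33, adjusted p = 0.000103), and Bsg was 22-fold lower. Pecam1, which defines endothelium, had no test and was at 4.94, 5.69 and 4.96 on the motor neuron arrays and 9.22, 9.92 and 9.95 on the tissue arrays. Ramp2, a partner of calcitonin receptor-like receptors, was higher (1.99-fold), as was Itm2a (1.63-fold, another bright probe set at -1.44). Summed, the endothelial genes had a log2 of 16.47 to 16.67 in motor neurons and 17.53 to 17.59 in tissue.

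Only 5 ependymal genes were tested, with 1 higher and 1 lower: Cfap126 at 1.26, a call that ended with the deposited values as they are (0.45), and Nnat, a proteolipid that neurons also express, at -5.56. The 2 tested genes of blood neutrophils, S100a8 (-5.07) and S100a9 (-5.72), were lower and close to background in motor neurons. Several defining markers of other cell types, among them Mbp, Slc1a2 and Csf1r, thus remained well above background on the motor neuron arrays. The part that RNA of such cells has in the motor neuron levels was not tested.

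**Figure D3:**
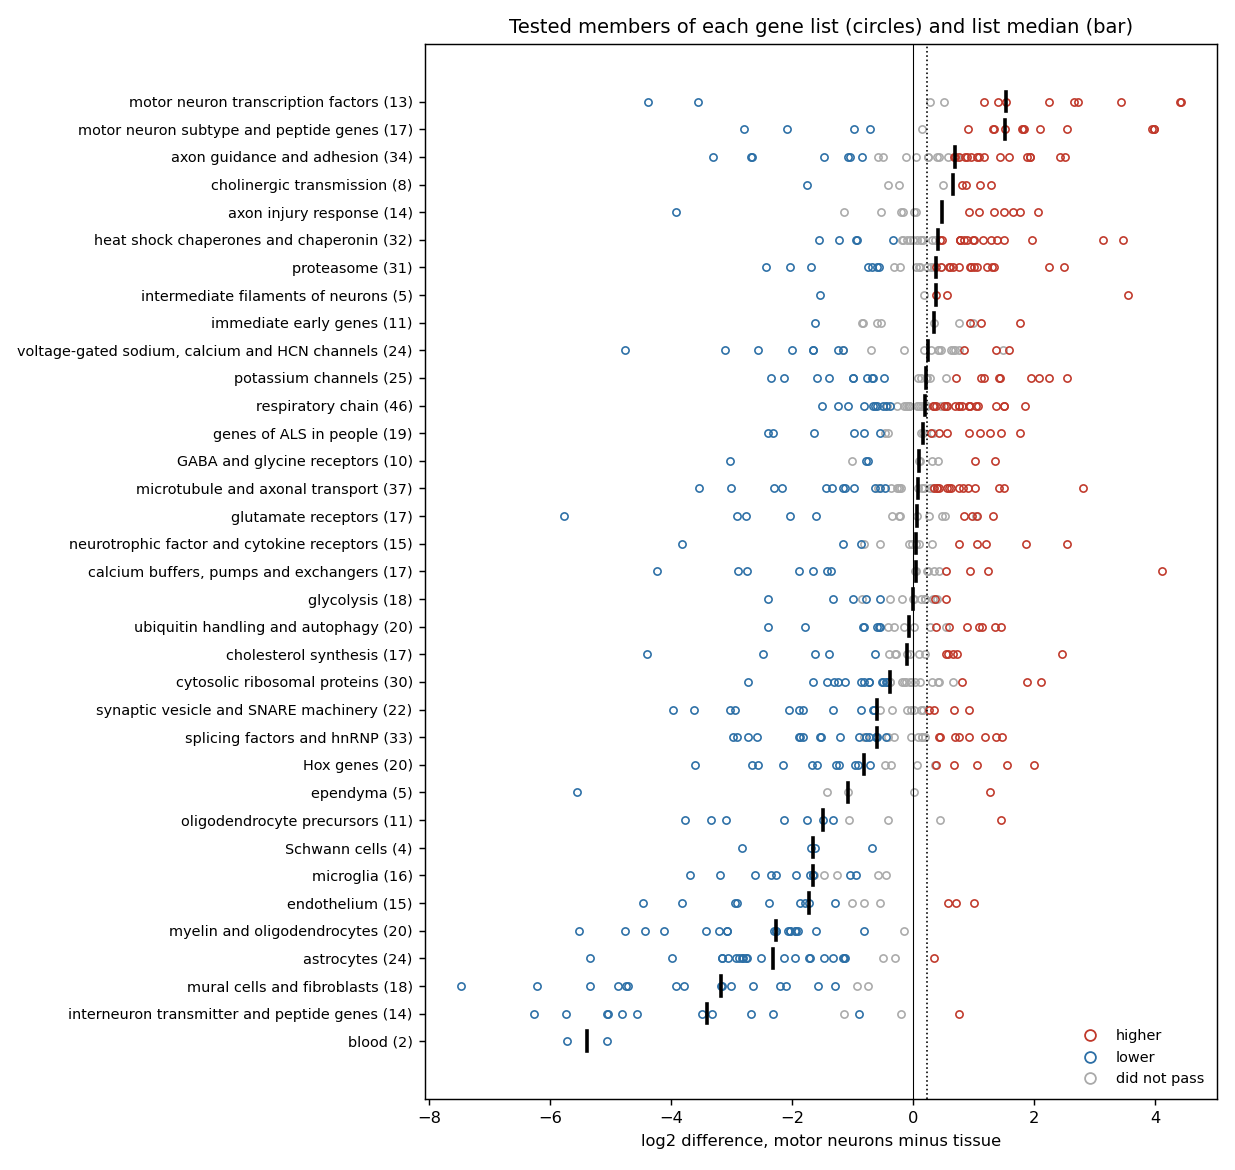
Log2 difference between motor neurons and tissue (horizontal axis) of every tested member of the 35 gene lists (rows, with the number tested), coloured by its call, with a bar at each list's median and the median of all tested genes (0.22) dotted. Motor neuron transcription factors (median 1.54) and subtype genes (1.52) lie at the top and interneuron, mural and glial lists at the bottom, and the medians of 16 lists change sign in at least 1 alternative: the synaptic, splicing, ribosomal, ubiquitin, glycolysis, cholesterol, potassium channel, sodium, calcium and HCN channel, glutamate receptor, GABA and glycine receptor, calcium, trophic receptor, immediate early, microtubule, heat shock and ALS lists.

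The contrast was repeated in 6 other arrays, SOD1 mutant spinal motor neurons and SOD1 mutant tissue, which share no array with the wildtype comparison. There 4585 genes (42%) were higher and 2929 (26.8%) lower. Of 10619 genes tested in both, 3427 were higher in both, which is 90.6% of the 3782 higher in wildtype and 75.8% of the 4522 higher in mutants. Lower in both were 2236, 89.5% of 2498 in wildtype and 78.2% of 2861 in mutants, and 2 genes in each direction were called with opposite signs. Of the genes at least 2-fold higher in wildtype motor neurons, 95.3% (2296 of 2409) were called higher in mutants, and of those at least 2-fold lower 94.7% (1613 of 1704) were called lower. Across genes, which are not independent replicates, the differences had a Pearson r of 0.932 and a Spearman rho of 0.923. Both sets of arrays share the amplification and the loss of 5' sequence, with an actin ratio of 1.64 ± 0.12 (SD, n = 3) in mutant tissue and 30.7 ± 7.37 in mutant motor neurons.

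Marker by marker, the mutant arrays gave log2 differences of 4.01 for Chodl, 4.48 for Mnx1, 3.39 for Isl1, 3.18 for Prph and 4.18 for Mmp9. Bag3 was at 3.96, Hspb8 at 3.09, Calcb at 3.41, Slc17a6 at -4.34, Mag at -4.39 and Igf2 at -6.28. Motor neuron transcription factors were higher in 11 and lower in 1 of 12 tested in mutants, and the Hox list had 5 higher and 8 lower of 20, with a median of -0.26. Mural and fibroblast genes were lower in 19 of 19 there, astrocyte genes in 23 of 24 and microglia genes in 11 of 18, with a median of -0.71 for microglia.

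A test of the interaction between genotype and kind of sample called 6 genes (0.055%), and 965 (8.84%) had an unadjusted p under 0.05. Gfap was lower in motor neurons than in tissue by less in mutants (-1.196) than in wildtype (-3.17), a difference of -1.97 (SE 0.28, adjusted p = 0.019). Laptm5, a lysosomal protein of immune cells, was at -1.05 in wildtype and 0.46 in mutants (interaction -1.50, adjusted p = 0.0391), and Sparc, a matrix protein of glia and vessels, at -3.16 and -2.23 (-0.93, adjusted p = 0.0391). Psmd6, a proteasome subunit, went the other way, 0.60 and -0.47 (1.07, adjusted p = 0.0177). Lpl, lipoprotein lipase, had motor neuron means of 5.42 in wildtype and 11.45 in mutants against tissue means of 10.84 and 11.68 (interaction -5.19, adjusted p = 0.000241), and Cys1, a ciliary protein, 5.52 and 9.79 against 10.38 and 10.29 (-4.36, adjusted p = 0.0113). Neither was tested in the wildtype comparison alone because of low levels. None of the 6 calls held in every alternative. With all 18 arrays in one fit all 6 ended (adjusted p of 0.147 to 0.534), and with the replicate block Lpl and Cys1 were still called. Gfap was called in 15 of 24 alternatives, with an adjusted p from 0.00265 to 0.534. This count rests on single arrays: it was 876 without wildtype motor neuron replicate 2, 15 without replicate 1, and 1 or 2 without any one tissue array.

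**Figure D4:**
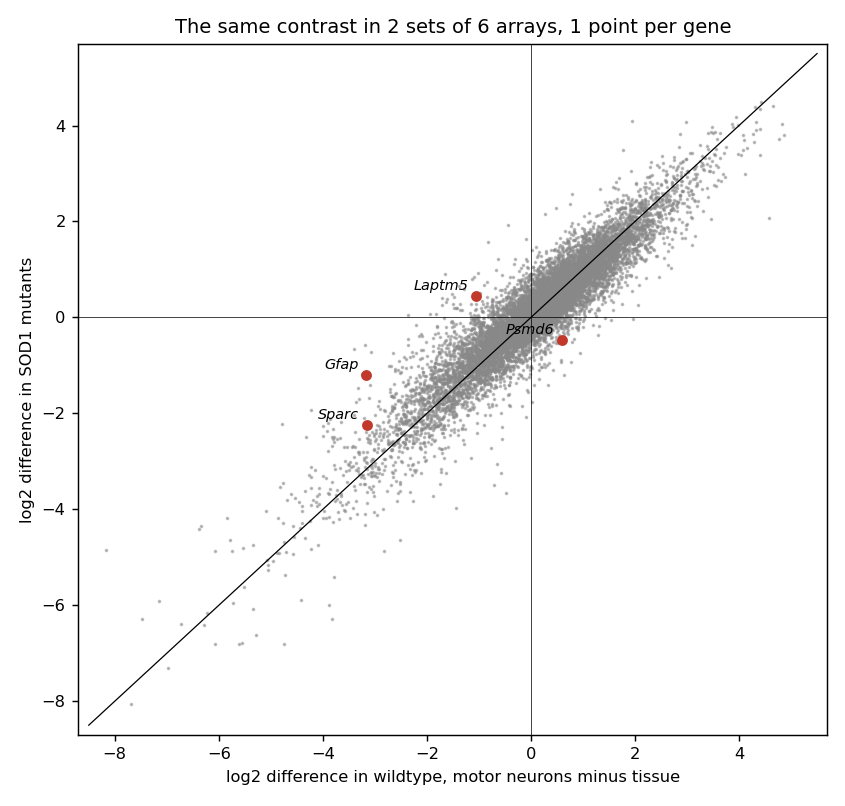
Log2 difference between spinal motor neurons and tissue in SOD1 mutants (vertical axis) against that in wildtype (horizontal axis), 1 point per gene tested in both, with the line of equal differences. The 10619 points follow the line (r = 0.932 across genes), and the 4 red points are the genes of this plot with an interaction past an adjusted p of 0.05, Gfap, Laptm5, Sparc and Psmd6.

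Wildtype motor neurons of the brainstem, called facial here, were set against the spinal ones to test which of these genes differ between sites. Between both kinds of motor neuron 433 genes differed, 233 (2.13%) higher and 200 (1.83%) lower in spinal ones, a count that ran from 66 without facial replicate 3 and 74 without spinal replicate 3 to 684 without spinal replicate 2. Some connective tissue genes were high on facial replicates 2 and 3. Igf2 was at 5.704, 12.39 and 11.69 on the facial arrays, Fmod at 5.86, 13.09 and 12.27 and Myl9 at 4.57, 12.27 and 11.22. Summed, the mural cell and fibroblast genes had a log2 of 16.39, 17.78 and 17.40 there against 16.05 to 16.27 in spinal cells, and 3 of 20 had a mean close to background against 10. The part of such RNA in the differences between sites was not tested, and 112 genes differed without facial replicate 2. Mnx1 was at 5.79, 4.35 and 5.37 on the facial arrays, under every tissue and every spinal motor neuron array (log2 difference 7.08, adjusted p = 0.000814). Isl1 was higher in facial cells by 1.97 (spinal minus facial -1.97, adjusted p = 0.0186), whereas Isl2 (1.85), Mmp9 (1.93) and Chodl (0.71) were higher in spinal ones. Prph (-0.19), Calcb (-0.01), Kcnj14 (-0.11) and Amhr2 (-0.06) did not pass. Hoxc10 (5.10, adjusted p = 6.31e-05) and Hoxc5 (5.40, adjusted p = 0.0158) were far higher in spinal cells, as was Aldh1a7 (4.94, adjusted p = 0.000735). In facial cells Mnx1, Hoxc5, Hoxc10 and Aldh1a7 all had means close to background.

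**Figure D5:**
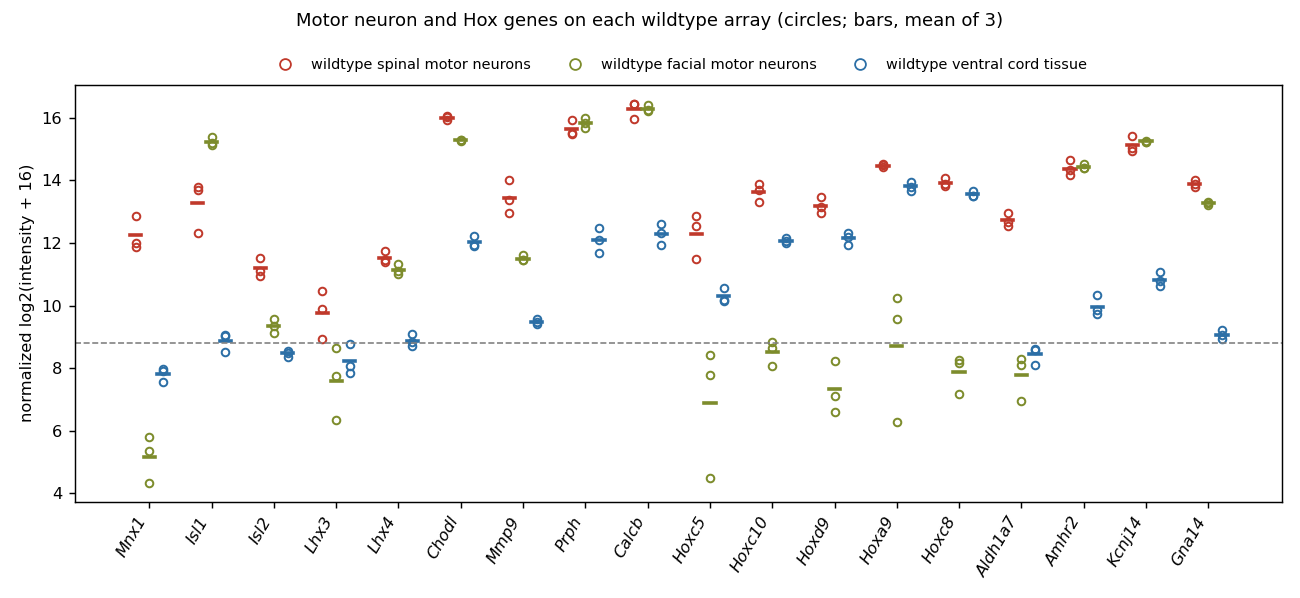
Normalized log2 level (vertical axis) of motor neuron and Hox genes on the wildtype arrays of spinal motor neurons, facial motor neurons and ventral cord tissue, 1 circle per array and a bar at each mean, with the 40th percentile of genes dashed. Calcb, Prph, Amhr2 and Kcnj14 lie far above tissue in both kinds of motor neuron, while Mnx1, Aldh1a7 and the Hox genes other than Hoxa9 lie close to or under the dashed line on the facial arrays.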

How the data were processed

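The authors deposited linear probe set intensities of the 18 arrays, with 2500 as the mean of every array after trimming 2% at each end. How images became intensities is not given in the sources used here, and amplification by T7 polymerase is stated per the labels' protocols. The values were put on a log2(intensity + 16) scale, and limma 3.58.1 in R 4.3.3 matched the quantiles of all 18 arrays. This scale understates differences of dim genes. Of 45101 probe sets, the platform annotation gave 34958 a single symbol, 932 several and 9211 none, and 34754 of the first matched a gene of the reference table. The probe set with the highest mean over all 18 arrays, most of them of motor neurons, stood for each of 18194 genes. A fit left out genes whose mean over its arrays fell under the 40th percentile. Groups were compared with lmFit and eBayes (trend in the variance) and Benjamini-Hochberg adjustment at 0.05, using the arrays of both groups. The code of the fit was tested on simulated data with few genes changed, which did not cover the normalization. Of 835 entries in 35 gene lists, 742 had such a probe set.

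The members, lists and tests were chosen with earlier results of these data known. Named genes are the 5 markers, up to 15 with the largest difference per direction whose groups did not overlap, up to 6 per list by size and up to 2 against the sign of its median, 223 in all, and cell type markers. Predicted genes were not named. The number of arrays limits the precision. The labels do not say whether replicate numbers pair the samples. The deviations of same-numbered arrays correlated at 0.013, -0.044 and -0.071, which with 3 arrays per group cannot show whether they do. Sequences are from RefSeq (GRCm38.p6), read with Python 3.11. Of the tested genes, 81.6% had a promoter among the 27025 used, a share that does not give the coverage of RefSeq.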

Additional observations from a re-analysis of the deposited data

Results flagged for a closer look

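The genes named above whose motor neuron level differed between sites in the test of wildtype spinal against wildtype facial cells (limma, adjusted p, spinal minus facial) are given here with their log2 differences, together with Gfap, whose difference from tissue also differed between genotypes. The facial samples came from another region, so region and motor neuron type cannot be told apart in these values.

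Higher in spinal cells were the identity genes Mnx1 by 7.08 (adjusted p = 0.000814), Isl2 by 1.85 (0.0165), Hoxc5 by 5.40 (0.0158) and Hoxc10 by 5.10 (6.31e-05), and the fast motor neuron genes Mmp9 by 1.93 (0.00744) and Chodl by 0.71 (0.00744). Among the genes with the largest difference from tissue, Aldh1a7 was higher by 4.94 (adjusted p = 0.000735), Dnah2 by 1.05 (0.0447) and Popdc3 by 0.92 (0.032). The calcium buffer genes Calb1 (4.18, adjusted p = 0.0223) and Pvalb (2.88, 0.00744) were higher in spinal than in facial cells although both were lower there than in tissue. Also higher were the nicotinic receptor gene Chrna7 (1.79, adjusted p = 0.006), Ramp2 (1.202, 0.0276), the calcium channel gene Cacna1e (2.34, 0.0245), Sema3a (1.06, 0.0122) and Gfap (3.91, 0.0127). Gfap is a gene of astrocytes. Summed, the astrocyte list had a log2 of 19.08 to 19.32 on the facial arrays and 19.15 to 19.27 on the spinal ones. The part of astrocyte RNA in the difference of Gfap was not tested.

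Lower in spinal cells were Isl1 (-1.97, adjusted p = 0.0186), the receptor genes Gabrb1 (-1.52, 0.0145), Gabrb2 (-1.75, 0.00471) and Gria1 (-1.60, 0.0232), the potassium channel gene Kcnd2 (-1.31, 0.0427), the chaperone genes Hsp90b1 (-1.03, 0.0338) and Hspb8 (-0.41, 0.0475), and the collagen gene Col3a1 (-3.39, 0.00744). Col3a1 was at 10.43, 11.71 and 11.03 on the facial arrays, of which replicates 2 and 3 also held Igf2, Fmod and Myl9 far above replicate 1, and its call ended without replicate 2 (adjusted p = 0.0522) or 3 (0.0608). The part of connective tissue RNA in its difference was not tested. All 24 genes kept their direction in every alternative, and 6 of them kept their call in every one that held them: Aldh1a7, Chrna7, Gabrb2, Gfap, Hoxc10 and Mnx1. Hspb8 was called in 7 of 17. Between genotypes, the difference of Gfap between motor neurons and tissue changed by -1.97 (adjusted p = 0.019), a call that ended with all 18 arrays in one fit (adjusted p = 0.534) and with the replicate block (0.0629).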

How the results depend on the processing

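Shifting the deposited values to a common median gave 4311 genes at least 2-fold higher in wildtype motor neurons, 1498 lower at any size and 1672 lower in mutants. As deposited, 2639 genes were at least 2-fold lower. Testing every probe set counts probe sets, 6781 higher and 6131 lower, 4984 and 4947 at 2-fold, and 8336 higher and 7204 lower in mutants. The filter at the 60th percentile left 1607 and 1129 genes at 2-fold. The 433 genes between spinal and facial cells became 1834 with all 18 arrays in the fit, 3221 with array weights, 196 without the variance trend and 231 with the replicate block. The 6 interaction genes became 0, 96, 2 and 2 in the same order. At a common median Gabrb1 (0.24), Pfkm (0.31), Pgam1 (0.82), Pkm (0.62), Pmp22 (0.74) and Rps24 (0.17) turned above 0, and as deposited Pgam1 (0.002) did. The cause of these changes was not tested, except that fewer or more features were tested under another filter or with every probe set. Leaving out 1 array at a time gave 3254 to 4037 higher and 1954 to 2892 lower genes, 2407 to 2580 and 1532 to 1960 at 2-fold, 4145 to 4585 higher and 2488 to 3043 lower in mutants, 66 to 684 between spinal and facial cells and 1 to 876 in the interaction. A lone pair left in a group is assumed to vary like the other group. With the replicate block, 3704 were higher and 2484 lower, and no named gene lost its call against wildtype tissue there. Pseudocounts of 1 and 64 and quantile normalization of the fitted arrays alone kept all these counts within 1.5 times. Of the 223 named genes, 31 lost their call in at least 1 alternative and 6 turned. Levels close to background limit how far depletion can be measured.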

Other observations

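Some genes outside the lists above were looked at after the differences were seen, in groups that were also chosen then, so the counts describe these arrays and carry no test of the group. Of 29 tested imprinted genes, 15 were lower and 5 higher in wildtype spinal motor neurons than in tissue, with a median log2 difference of -0.90, while 23.1% of all tested genes were lower and 35.5% higher, with a median of 0.22. Another 11 were measured but not tested, 10 of them with a motor neuron mean close to background. Beside Igf2, Cdkn1c and Nnat, described above, Dlk1 (levels 7.54 ± 1.94 and 12.22 ± 0.08, SD, n = 3) and the noncoding RNA Rian (12.93 ± 0.46 and 15.18 ± 0.08) were lower. Mest, of the hydrolase family, was higher (13.94 ± 0.45 and 10.45 ± 0.08), and so was Ndn, necdin of differentiated neurons (17.14 ± 0.08 and 16.36 ± 0.05).

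Of 40 measured genes of the cell cycle, 21 were tested, and 9 were higher and 6 lower, with a median of 0.40. These shares lie near the 35.5% higher and 23.1% lower of all tested genes, so the counts give no result about the group. Of the 19 untested genes, 16 had a motor neuron mean close to background, among them the division genes Mki67 (6.47), Top2a (6.44), Plk1 (6.97), Ccna2 (7.42) and Cdc20 (8.68). The small Cdk-binding proteins Cks2 and Cks1b had log2 differences of 4.07 and 3.55, and Trip13, an ATPase of the meiotic and spindle checkpoints, 3.47. In mutants the same 3 genes were at 3.80, 2.73 and 2.05. On the lower side stood Ccnd2 (-2.60), Cdkn1a (-1.45) and Pcna (-1.21).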
